A study of Mus musculus with 25 samples.

Results

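The glutathione transferases described here are 10 genes, *Gsta3*, *Gsta4*, *Gstm1*, *Gstm2*, *Gstt1*, *Gstz1*, *Gsto1*, *Gstk1*, *Mgst1* and *Mgst3*, taken by their symbols from the 54752 genes counted in each library. They were chosen by name and family, without any measured value in the rule, but with earlier results of these data known. RNA-seq libraries were made from the epididymal (eWAT) and inguinal (iWAT) white fat of male C57BL/6N mice, 25 in all. The groups of a depot were wild type mice on normal diet (ND) or high-fat diet (HFD) and *Acod1*-/- mice on HFD, with 4, 5 and 5 libraries in eWAT and 3, 5 and 3 in iWAT. *Acod1* encodes the enzyme that makes itaconate. The knockout is a whole-body deletion (C57BL/6N-Acod1em1(IMPC)J/J), no ND-fed knockout library was analysed here, and wild type and knockout mice were littermates from heterozygous parents. Fat supplied 60% of the calories of the HFD, which was fed for 16 weeks starting at an age of 5 weeks, and 2 of the 3 iWAT knockout libraries are labelled 17 and 18 weeks. The comparisons ask what the diet does to these genes in each fat depot and what loss of *Acod1* changes in HFD-fed mice.

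Glutathione transferases join the tripeptide glutathione to electrophiles, among them the reactive aldehydes that form when lipids are oxidized, so that these can be reduced further or exported. The soluble enzymes fall into classes named alpha, mu, pi, sigma, theta, zeta and omega. The kappa enzyme sits in mitochondria and peroxisomes, and the microsomal enzymes are unrelated membrane proteins of the MAPEG family. In fat the alpha class enzyme GSTA4 is known for its high activity towards hydroxynonenal, a lipid peroxidation aldehyde that modifies adipocyte proteins. Some members have other tasks: GSTZ1 is maleylacetoacetate isomerase, a step of tyrosine breakdown, and GSTO1 reduces dehydroascorbate and mixed disulfides.

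Per library 31.4 to 52.3 M reads (M, 1000000) were counted on genes, and the members together took 0.179% to 0.364% of them. The column headers put 14 libraries in one series and 11 in another, called series 1 and series 2 here, and all ND-fed libraries are in series 2. What the series mark is not given in the sources used here. *Acod1* was too low to check the genotype labels: its highest count was 9 in a wild type library and 2 in a knockout library. All 10 adipocyte markers were above 3 counts in every library. The 5 liver transcripts (*Alb*, *Ttr*, *Apoa2*, *Serpina1c* and *Fgb*), listed after the data were seen, summed to 9.62 to 36.0 CPM (read counts scaled to library size, per 1000000 reads) in ND-fed libraries and 25.7 to 979 CPM in HFD-fed ones. The 6 lymph node markers summed to 557 to 866 CPM in ND-fed iWAT and to at most 53.3 CPM in the other iWAT libraries. The 12 epididymis markers summed to 8180 CPM in ND-fed eWAT library 2 and 1088 CPM in knockout eWAT library 5, and to 0.23 to 364 CPM in the other eWAT libraries. The 10 macrophage markers summed to 2318 to 7026 CPM in HFD-fed wild type eWAT, 560 to 1078 CPM in ND-fed eWAT and 532 to 2034 CPM in knockout eWAT, where library 5 was again the highest. The 10 adipocyte markers summed to 32787 to 39312 CPM in ND-fed iWAT and 56584 to 72084 CPM in HFD-fed wild type iWAT. In bulk tissue, fewer cells of a type and less RNA per cell cannot be told apart.

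**Figure D1:**
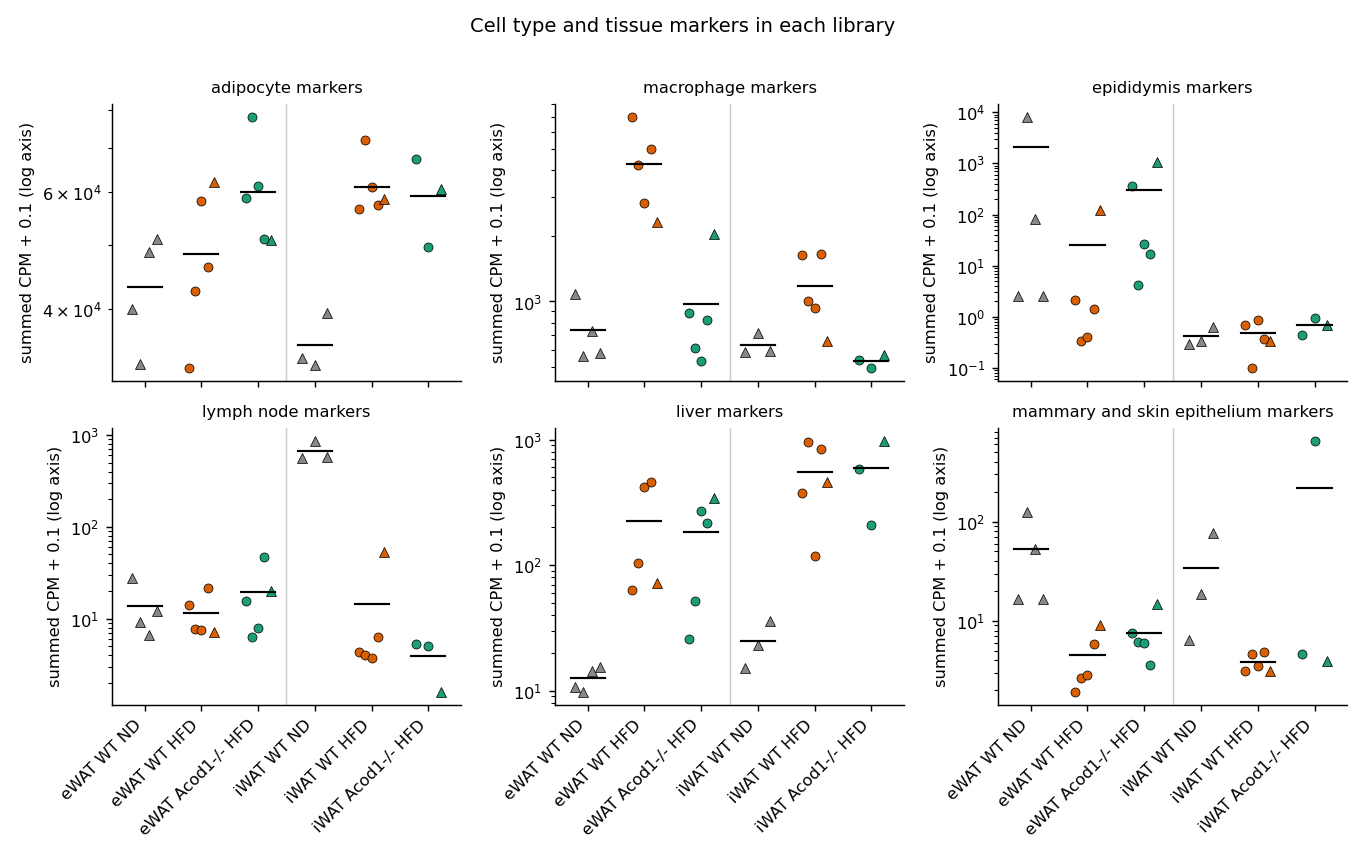
Summed level of 6 marker lists in each library, in CPM plus 0.1 on a log axis, by depot, genotype (WT, wild type) and diet; circles are libraries of series 1, triangles those of series 2, and lines are group means. Liver transcripts are higher in HFD-fed than in ND-fed libraries of the same depot, lymph node markers are high in the 3 ND-fed iWAT libraries, and 1 ND-fed eWAT library reaches 8180 CPM of epididymis markers.

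In the mouse genome (GRCm38) the members are protein-coding genes. *Gstm1* (3, 108012255 to 108017973) and *Gstm2* (3, 107981702 to 107986453) are neighbours on the reverse strand of chromosome 3, in a cluster with *Gstm3*, *Gstm4*, *Gstm5*, *Gstm6* and *Gstm7*. *Gsta3* lies on chromosome 1 (21240589 to 21265661) and *Mgst3* on the same chromosome (167371966 to 167393841). *Gsta4* is on chromosome 9 (78182774 to 78209349), *Gstt1* on chromosome 10 (75783813 to 75798584) and *Gstz1* on chromosome 12 (87147165 to 87164723). *Gsto1* is on chromosome 19 (47854970 to 47864790), next to *Gsto2*. *Gstk1* (42245935 to 42250447) and *Mgst1* (138140316 to 138156755) are both on chromosome 6. Of the transcript words of 50 bases, *Gstm1* shares 18.9% with other genes, mostly the pseudogene *Gstm2-ps1* and *Gstm3*, *Gstz1* shares 9.39% with the overlapping *Pomt2* and *Gm6566*, and *Gstm2* shares 5.65%, mostly with 2 pseudogenes. *Gsta3* shares 0.273%, and the other 6 members share none. *Gsta3*, *Gstz1* and *Gsto1* overlap genes on the other strand, and whether counting used the strand is not stated, so reads of these pairs cannot be told apart. The overlapping genes had a mean of 0.061 CPM for *Gsta3*, 16.7 CPM for *Gstz1* and 6.82 CPM for *Gsto1*, against 108, 746 and 75.0 CPM for the members.

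Several of these genes are known targets of NRF2, a factor that binds antioxidant response elements, so the start regions of members were searched for the core letters of that element. Windows of 300 bases, from 250 before to 50 after a RefSeq transcript start, were taken from RefSeq (GRCm38.p6) for 9 of the 10 members, with *Gsta4* the exception, and searched on both strands for TGACNNNGC. The 9 members have 12 such windows. The letters were found in 2 of the 12, the window of *Gsta3* and 1 of the 2 windows of *Mgst1*, and in 12.4% of all 32851 windows of this length. The match is a description of the letters and does not show a binding site. The windows of *Gsta3* (chr1:21240335-21240634, forward strand), *Mgst1* (chr6:138140277-138140576, forward strand) and, as a window without a match, *Mgst3* (chr1:167393792-167394091, reverse strand) are shown 5′ to 3′ with the matching letters in capitals. The match starts 121 bases before the RefSeq start in *Gsta3*, and 56 bases before it, on the other strand, in *Mgst1*, whose RefSeq start lies inside the gene span given above.
Gsta3: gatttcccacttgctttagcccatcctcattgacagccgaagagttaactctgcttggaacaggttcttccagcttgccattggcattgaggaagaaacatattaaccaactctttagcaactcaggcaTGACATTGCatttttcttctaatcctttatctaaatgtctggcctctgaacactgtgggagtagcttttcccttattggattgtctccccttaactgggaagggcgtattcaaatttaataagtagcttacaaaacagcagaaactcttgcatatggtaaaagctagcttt
Mgst1: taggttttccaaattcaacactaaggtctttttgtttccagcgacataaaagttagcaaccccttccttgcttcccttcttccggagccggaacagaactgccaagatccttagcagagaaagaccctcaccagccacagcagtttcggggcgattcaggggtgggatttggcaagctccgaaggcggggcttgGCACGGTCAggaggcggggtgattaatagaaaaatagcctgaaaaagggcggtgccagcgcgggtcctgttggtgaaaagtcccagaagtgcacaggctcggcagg
Mgst3: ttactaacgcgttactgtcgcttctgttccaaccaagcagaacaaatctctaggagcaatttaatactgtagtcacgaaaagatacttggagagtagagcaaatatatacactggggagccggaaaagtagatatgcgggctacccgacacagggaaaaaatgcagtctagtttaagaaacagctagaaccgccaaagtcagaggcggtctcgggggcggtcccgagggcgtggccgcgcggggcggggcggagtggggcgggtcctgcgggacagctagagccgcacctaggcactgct

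Levels between genes were compared as CPM per kb of cDNA. *Mgst1*, the enzyme of the endoplasmic reticulum and outer mitochondrial membrane, had the highest mean of the members in each of the 6 groups, from 380 ± 25.5 CPM per kb (SD, n = 3) in ND-fed iWAT to 720 ± 247 (n = 3) in knockout iWAT. *Gstm1*, *Mgst3* and *Gstz1* followed, with group means of 127 to 367, 127 to 264 and 104 to 195 CPM per kb. The lowest mean belonged to *Gsta4*, at 5.15 ± 2.0 CPM per kb (n = 5), in HFD-fed wild type eWAT. The other 5 members had group means of 11.2 to 123 CPM per kb. Group means of *Gsta4* spanned 5.15 to 33.6 CPM per kb and those of *Gsta3* 11.2 to 53.3, while those of *Gstk1* stayed between 27.2 and 46.8. The deposited cDNA lengths were 5088 bases for *Gstz1* and 4344 for *Gsta3*, against 1097 to 2013 for the rest. The order of genes per kb depends on these lengths, and their match to the transcripts in fat was not tested. In CPM *Mgst1* again had the highest mean in each group, and *Gstz1* came next.

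**Figure D2:**
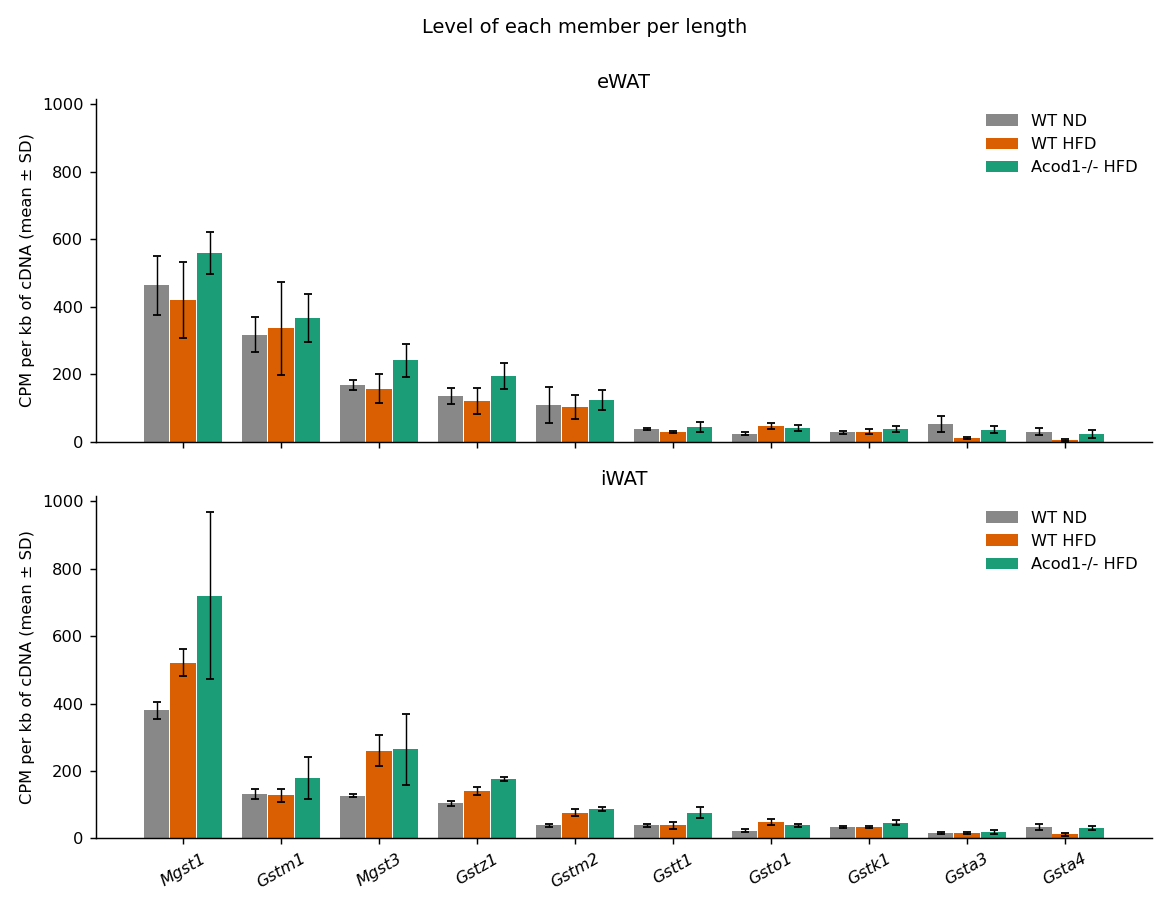
Level of each member per length (CPM per kb of cDNA, mean and SD over the libraries of a group), in eWAT above and iWAT below, with members ordered by their mean level. Mgst1 is the highest bar in each group, up to 720 CPM per kb, and Gsta4 reaches the lowest, 5.15 CPM per kb in HFD-fed wild type eWAT.

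In edgeR's quasi-likelihood test, with p-values adjusted over all genes tested, the threshold for a call was an adjusted p of 0.1. For diet in eWAT, 3 of the 10 members were called, 1 higher and 2 lower in HFD-fed wild type mice, where 51.8% of all genes were called. For genotype in eWAT, 5 members were called and the 5 were higher in *Acod1*-/- mice, where 19.9% of all genes were called and 9.13% were called higher. For diet in iWAT, 6 members were called, 5 higher and 1 lower, where 50.1% of all genes were called and 25.9% were called higher. For genotype in iWAT no member was called, and neither was any other gene (0.0%). At an unadjusted p under 0.05 there were 6 members, all of them higher in *Acod1*-/- mice, and 2468 genes, and DESeq2's Wald test called 4 members and 1072 genes. The median log2 fold change of the 10 members was -0.12, 0.51, 0.28 and 0.36 in these comparisons, and that of all genes tested -0.04, 0.04, 0.00 and -0.01. In CPM, groups did not overlap for 4 members for diet in eWAT (35.2% of all genes), 2 for genotype in eWAT (7.14%), 6 for diet in iWAT (47.1%) and 4 for genotype in iWAT (8.26%). The diet and genotype comparisons of a depot share the HFD-fed wild type libraries.

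**Figure D3:**
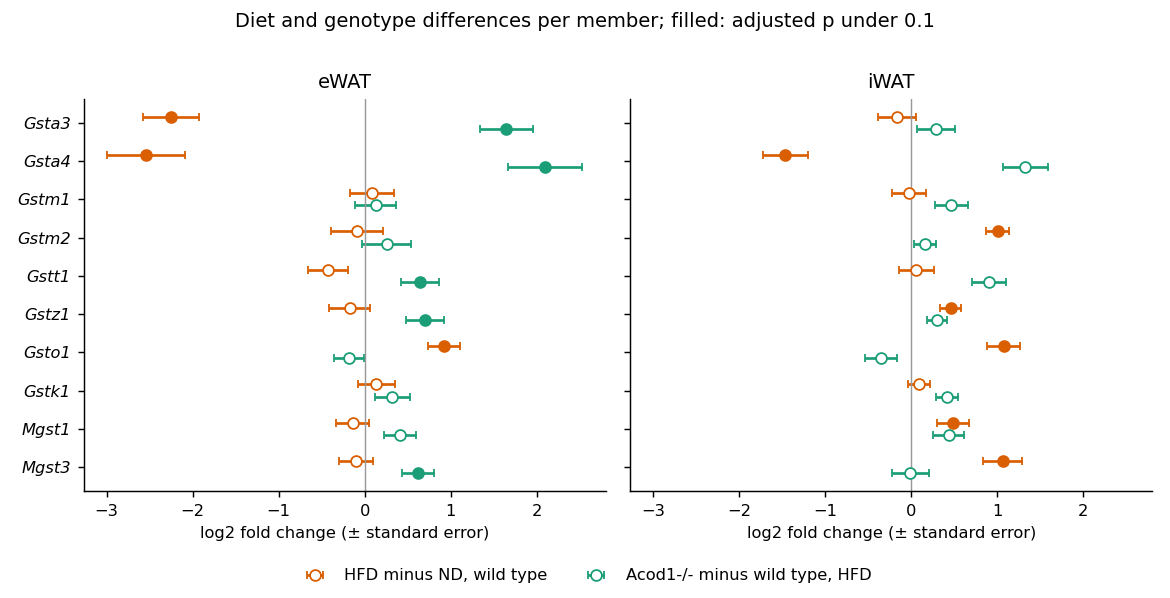
Fitted log2 fold change of each member, with its standard error, for diet (orange) and genotype (green) in eWAT and iWAT; filled points have an adjusted p under 0.1. In eWAT Gsta3 and Gsta4 lie at -2.25 and -2.54 for diet and 1.65 and 2.10 for genotype, and in iWAT 6 points for diet and none for genotype are filled.

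The alpha class members *Gsta3* and *Gsta4* changed most in eWAT: both fell on HFD in wild type mice and were higher in HFD-fed *Acod1*-/- than in HFD-fed wild type mice. *Gsta3* was at 142, 200.4, 202 and 381 CPM in the 4 ND-fed eWAT libraries and at 26.6, 44, 66.7, 47.1 and 57.8 CPM in the 5 HFD-fed wild type libraries. In the HFD-fed knockout libraries it was at 201, 146, 189, 141 and 82.0 CPM. The wild type groups did not overlap, the knockout libraries all lay above the HFD-fed wild type ones, and 4 of the 5 lay within 141 to 201 CPM, with library 5 the lowest. *Gsta3* fell 4.77-fold with diet (log2 -2.25 ± 0.32 standard error, adjusted p = 0.000405) and was 3.13-fold higher in the knockout (log2 1.65 ± 0.31, adjusted p = 0.011). HFD-fed knockout and ND-fed wild type eWAT did not differ beyond their spread (log2 -0.61 ± 0.32, adjusted p = 0.189, 95% interval -1.22 to 0.01).

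*Gsta4*, the enzyme of lipid aldehydes, was at 24.0, 32.8, 36.3 and 58.8 CPM in ND-fed eWAT and at 2.56, 6.05, 8.63, 6.53 and 8.81 CPM in HFD-fed wild type eWAT. In knockout eWAT it was at 26, 47, 33.8, 25.8 and 7.39 CPM. Every HFD-fed wild type library was below every ND-fed one, and 4 knockout libraries were above them while library 5 fell inside the HFD-fed wild type range. The fall with diet was 5.82-fold (log2 -2.54 ± 0.45, adjusted p = 0.00109) and the knockout was 4.28-fold higher (log2 2.10 ± 0.43, adjusted p = 0.0131). Without knockout library 5, the *Gsta4* difference between genotypes was 2.34 ± 0.34 on the log2 scale and that of *Gsta3* 1.80 ± 0.29. In series 2 alone, where each genotype has 1 HFD-fed eWAT library, the wild type was at 57.8 CPM of *Gsta3* and 8.81 CPM of *Gsta4* and the knockout at 82.0 and 7.39 CPM. In series 1 alone, with 4 libraries a group, the genotype differences were 1.86 ± 0.27 for *Gsta3* and 2.46 ± 0.35 for *Gsta4* (adjusted p = 0.00245 and 0.00242).

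In iWAT *Gsta4* fell with diet too. Its levels were 33.7, 36.9 and 57.2 CPM in ND-fed and 11.1, 14.3, 11.8, 15.4 and 23.2 CPM in HFD-fed wild type iWAT, which do not overlap, a 2.75-fold fall (log2 -1.46 ± 0.26, adjusted p = 0.00135). The knockout libraries, at 45.1, 41.9 and 29.7 CPM, were all above the HFD-fed wild type ones, but the difference of 1.33 ± 0.26 on the log2 scale had an adjusted p of 0.136. With the 6 HFD-fed libraries of series 1 alone it was 1.73 ± 0.16 (adjusted p = 0.0153), and without knockout library 3, from the 18-week sample, 1.52 (adjusted p = 0.0174). It was also called without wild type library 5 (1.54, adjusted p = 0.0384). *Gsta3* gave another picture in this depot: 61.7, 75.5 and 83.9 CPM in ND-fed, 43.7, 74.7, 60.7, 64.9 and 78.1 CPM in HFD-fed wild type and 76.7, 59.5 and 104 CPM in knockout iWAT, ranges that all overlap. Its diet difference was -0.16 ± 0.22 (adjusted p = 0.58). The effect of diet on *Gsta3* differed between depots (interaction -2.06 ± 0.43 on the log2 scale, adjusted p = 0.00174), while for *Gsta4* the difference of -1.05 ± 0.57 did not pass the test (adjusted p = 0.202).

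Of the mu class, *Gstm1* showed no called difference with diet or genotype in either depot and was higher in eWAT than in iWAT in each pair of groups. Its range was 395 to 535 CPM in ND-fed, 288 to 825 in HFD-fed wild type and 436 to 692 in knockout eWAT, against 169 to 214, 153 to 230.1 and 210.3 to 371 CPM in iWAT. The ranges of the 2 depots did not overlap within any of the 3 conditions. The depot difference was 1.26 ± 0.27 in ND-fed wild type, 1.40 ± 0.22 in HFD-fed wild type and 1.03 ± 0.26 in knockout mice on the log2 scale (adjusted p = 0.00201, 0.000491 and 0.0421). The 6 mesothelial markers moved with it: they summed to 39.8 to 161 CPM in eWAT and 0.341 to 7.26 CPM in iWAT, 6 of the 6 were called higher in eWAT in each condition, and their part was not tested. The call in knockout mice was lost without knockout iWAT library 2 (0.90, adjusted p = 0.234) or 3 (0.89, adjusted p = 0.105). Sequence shared with *Gstm3* and pseudogenes makes the level of *Gstm1* uncertain, and *Gstm3* itself had at most 42 counts.

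*Gstm2*, its neighbour on chromosome 3, rose with diet in iWAT. It was at 73.5, 59.8 and 63.0 CPM in ND-fed, 112, 150.4, 119, 120.1 and 141 CPM in HFD-fed wild type and 156, 133 and 149.6 CPM in knockout iWAT. ND-fed libraries lay below all HFD-fed libraries of both genotypes, and the rise in wild type mice was 2.01-fold (log2 1.01 ± 0.13, adjusted p = 0.000282). In eWAT it was at 134, 318, 125 and 156 CPM in ND-fed, 97, 159, 189, 158 and 259 CPM in HFD-fed wild type and 179, 268, 154, 182 and 248 CPM in knockout mice. The highest of these, 318 CPM, was ND-fed library 2, which also had the most epididymis transcripts. With that library, the diet effect on *Gstm2* differed between depots (-1.06 ± 0.37, adjusted p = 0.0454), and without it the difference was -0.66 (adjusted p = 0.136). It was also lost without ND-fed iWAT library 2 (-1.0, adjusted p = 0.118). *Gstm2* was higher in eWAT than in iWAT of ND-fed mice (1.49 ± 0.30, adjusted p = 0.00101).

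*Gstt1*, the theta class enzyme that acts on small halogenated compounds, was higher in knockout than in wild type HFD-fed eWAT. The levels were 59.1, 53.0, 62.2 and 54.8 CPM in ND-fed, 37.1, 44.8, 43.4, 37.1 and 50.2 CPM in HFD-fed wild type and 76.4, 52.6, 93.6, 78.8 and 31.7 CPM in knockout eWAT. Of the knockout libraries 4 were above the HFD-fed wild type range and library 5 was below it. The difference was 1.57-fold (log2 0.65 ± 0.22, adjusted p = 0.0705), and it missed the threshold without any of wild type libraries 1, 2, 3 or 4 or knockout libraries 1, 3 or 4, at 0.49 to 0.66 (adjusted p from 0.102 to 0.182). Diet in eWAT gave -0.43 ± 0.23 (adjusted p = 0.15), although the groups did not overlap, and -0.43 with an adjusted p of 0.0279 once knockout library 5 was left out of the shared fit. In iWAT *Gstt1* was at 66.3, 58.5 and 54.1 CPM in ND-fed, 49.9, 69.3, 51.9, 47.7 and 84.8 CPM in HFD-fed wild type and 144, 103 and 101 CPM in knockout mice. The 3 knockout libraries were above all others of the depot, with a difference from HFD-fed wild type of 0.91 ± 0.20 on the log2 scale (adjusted p = 0.137) and from ND-fed wild type of 0.97 ± 0.23 (adjusted p = 0.0101). The first was called without wild type library 5 (1.07, adjusted p = 0.0447) or knockout library 3 (1.02, adjusted p = 0.0284). *Gstt1* was lower in eWAT than in iWAT of knockout mice (-0.80 ± 0.24, adjusted p = 0.083), a call lost without eWAT libraries 1, 2 or 5 or iWAT libraries 1 or 2 of that genotype (-0.62 to -0.88, adjusted p from 0.1 to 0.294).

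*Gstz1*, the tyrosine breakdown enzyme, was 1.63-fold higher in knockout than in HFD-fed wild type eWAT and rose 1.37-fold with diet in iWAT. In eWAT it was at 591, 588, 762 and 817 CPM in ND-fed, 302, 580.2, 785, 623 and 764 CPM in HFD-fed wild type and 937, 1318, 1012, 913 and 793 CPM in knockout mice. All knockout libraries were above all HFD-fed wild type ones (log2 0.70 ± 0.23, adjusted p = 0.0587), and the call was lost without wild type libraries 2 or 4 or knockout libraries 2 or 3 (0.58 to 0.71, adjusted p from 0.107 to 0.123). In iWAT the levels were 499, 518 and 577 CPM in ND-fed, 618, 718, 738, 737 and 766 CPM in HFD-fed wild type and 899, 865 and 929 CPM in knockout mice. The 3 groups did not overlap, with ND-fed wild type the lowest and the knockout the highest. The diet difference was 0.46 ± 0.12 (adjusted p = 0.00931), the genotype difference 0.30 ± 0.11 (adjusted p = 0.22) and that of knockout from ND-fed wild type 0.76 ± 0.13 (adjusted p = 0.00172).

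*Gsto1*, the omega class reductase, was the member that rose with diet in both depots. It was at 47.9, 36.0, 46.2 and 58.7 CPM in ND-fed eWAT and 65.0, 92.9, 94.2, 81.7 and 114 CPM in HFD-fed wild type eWAT, a 1.90-fold rise (log2 0.93 ± 0.19, adjusted p = 0.00221). In iWAT it was at 36.9, 42.8 and 58.7 CPM in ND-fed and 92.9, 121, 105, 83.2 and 75.7 CPM in HFD-fed wild type mice, a 2.11-fold rise (log2 1.08 ± 0.19, adjusted p = 0.00136). The groups did not overlap in either depot. Knockout mice had 78.1, 78.7, 73.5, 59.9 and 104 CPM in eWAT and 82.9, 67.3 and 78.0 CPM in iWAT, all above the ND-fed libraries of the depot. Genotype differences were -0.19 ± 0.17 and -0.35 ± 0.18 (adjusted p = 0.51 and 0.368), with 95% intervals of -0.53 to 0.15 and -0.71 to 0.01. The effect of diet on *Gsto1* was not shown to differ between depots (interaction -0.13 ± 0.27, adjusted p = 0.78).

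*Gstk1*, the kappa enzyme, was not called for diet or genotype in either depot. Its groups ranged from 26.8 to 68.0 CPM in eWAT and from 43.5 to 80.0 CPM in iWAT. The 3 knockout iWAT libraries, at 80.0, 64.1 and 62.3 CPM, were above the 8 wild type ones, of which the highest had 57.8 CPM. They differed from ND-fed wild type by 0.51 ± 0.14 on the log2 scale (adjusted p = 0.0229), and from HFD-fed wild type by 0.42 ± 0.13 (adjusted p = 0.162). The latter was 0.51 with an adjusted p of 0.044 without knockout library 3.

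Of the membrane enzymes, *Mgst3*, a peroxidase and transferase of the endoplasmic reticulum, rose 2.10-fold with diet in iWAT and was 1.53-fold higher in knockout than in HFD-fed wild type eWAT. In iWAT it was at 141, 144 and 134 CPM in ND-fed, 256, 376, 255, 264 and 279 CPM in HFD-fed wild type and 419.9, 194 and 254 CPM in knockout mice. All HFD-fed libraries were above the 3 ND-fed ones (diet 1.07 ± 0.23, adjusted p = 0.00365), and the genotype difference was -0.01 ± 0.22 with a 95% interval of -0.43 to 0.42. In eWAT it was at 189, 164, 205 and 183 CPM in ND-fed, 124, 137, 177, 178 and 245 CPM in HFD-fed wild type and 295, 267, 309, 277 and 173 CPM in knockout mice. Knockout libraries 1 to 4 were above the others of the depot and library 5 was not. The genotype difference was 0.62 ± 0.19 (adjusted p = 0.0477), and it was lost without wild type library 1 (0.51, adjusted p = 0.109) or knockout library 3 (0.55, adjusted p = 0.111). In series 2 the wild type library had 245 CPM and the knockout library 173 CPM. The diet effect on *Mgst3* differed between depots (interaction -1.14 ± 0.31, adjusted p = 0.0109), and *Mgst3* was lower in eWAT than in iWAT of HFD-fed wild type mice (-0.73 ± 0.20, adjusted p = 0.0164).

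*Mgst1*, the most abundant member, was at 725, 746 and 823 CPM in ND-fed, 1018, 1185, 1046, 1032 and 971 CPM in HFD-fed wild type and 1379, 1979 and 993 CPM in knockout iWAT. ND-fed libraries were the lowest of the depot, and the 1979 CPM came from knockout library 2, whose 7 mammary and skin epithelium markers summed to 649 CPM against at most 76.7 CPM in the other iWAT libraries. The part of that tissue in the value was not tested. Diet gave 0.49 ± 0.18 (adjusted p = 0.0522), a call lost without ND-fed libraries 1 or 2 or HFD-fed library 2 (0.43 to 0.46, adjusted p from 0.127 to 0.148). In eWAT *Mgst1* ranged from 736 to 1137 CPM in ND-fed, 594 to 1096 in HFD-fed wild type and 906 to 1215 CPM in knockout mice, and the genotype difference of 0.41 ± 0.18 (adjusted p = 0.152) was called without wild type library 5 (0.52, adjusted p = 0.0768) or knockout library 5 (0.48, adjusted p = 0.0829).

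**Figure D4:**
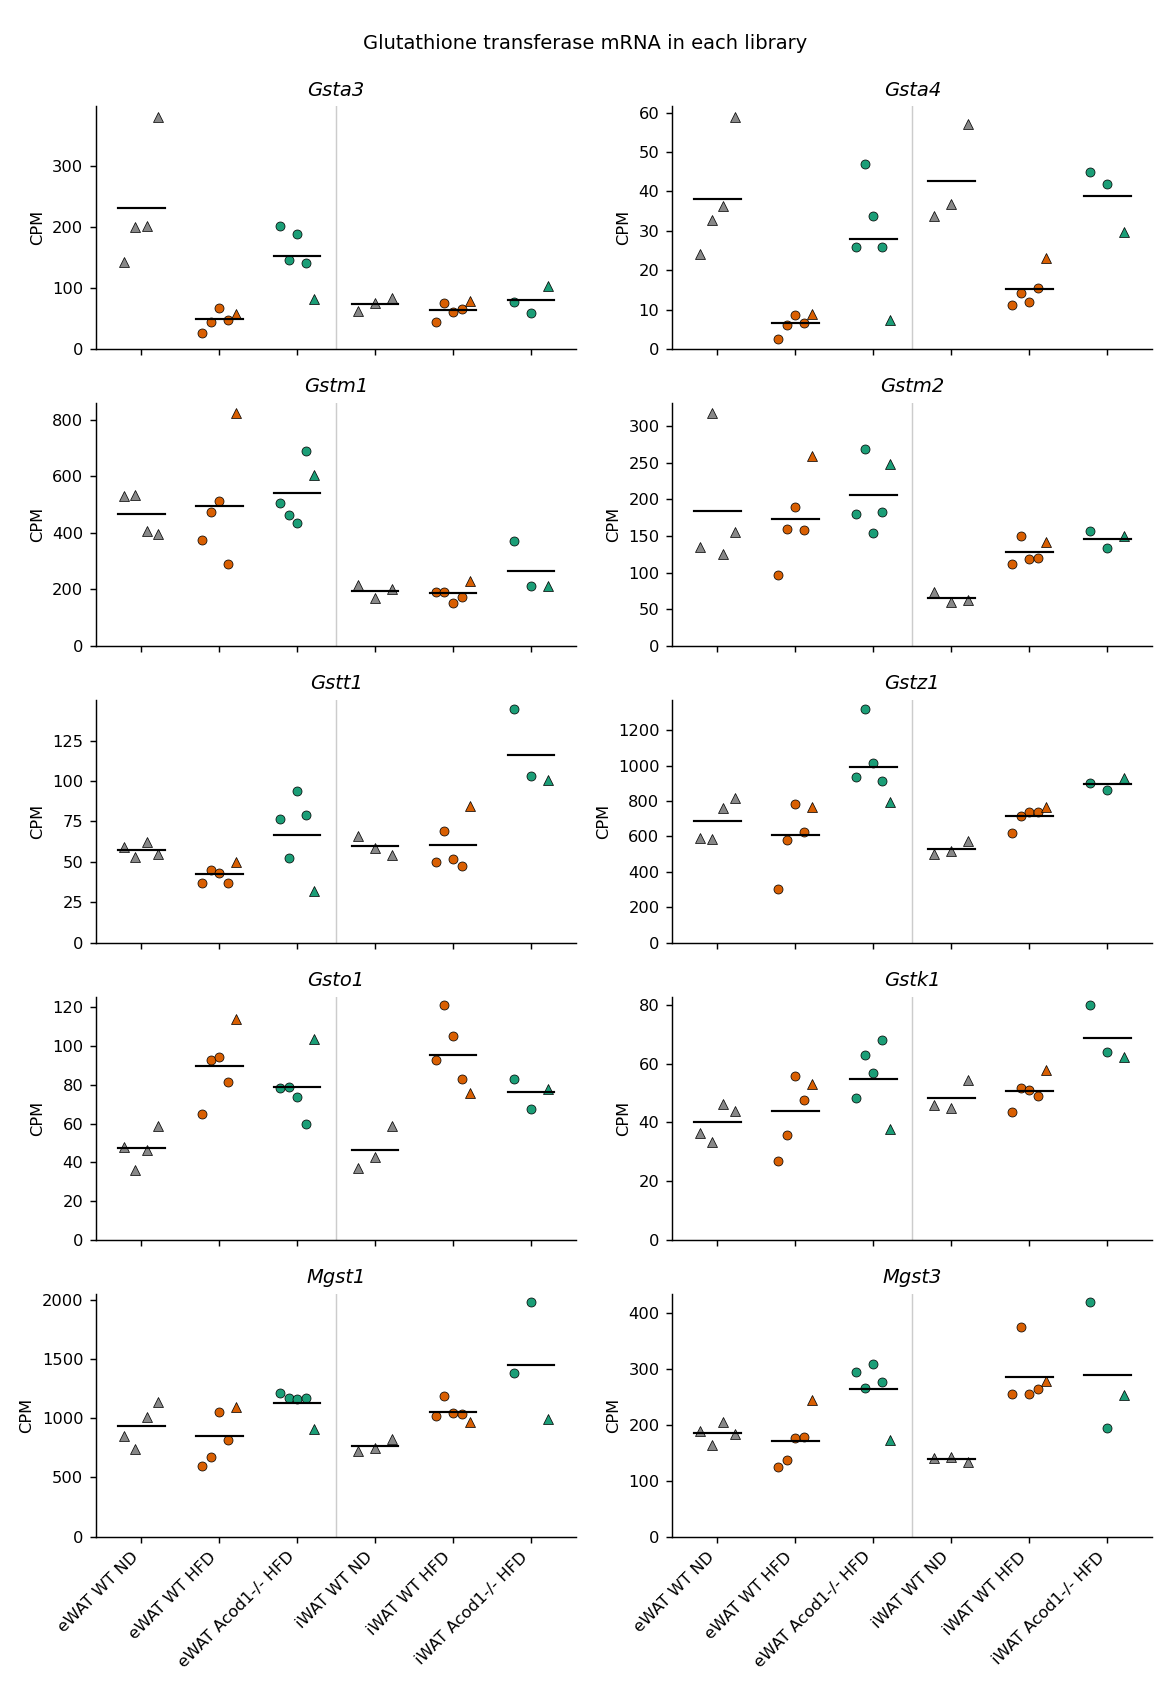
CPM of each member in each library, by depot, genotype (WT, wild type) and diet, on linear axes from 0; circles are libraries of series 1, triangles those of series 2, and lines are group means. Gsta3 and Gsta4 are low in the HFD-fed wild type eWAT libraries (26.6 to 66.7 and 2.56 to 8.81 CPM), and knockout eWAT library 5, the green triangle, is the lowest knockout library of that depot for Gsta3, Gsta4, Gstt1, Gstz1, Gstk1, Mgst1 and Mgst3.

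The diet groups differed in other ways too. All ND-fed libraries are in series 2, and with the series as a term 3 of the 3 members called in eWAT and 5 of the 6 in iWAT stayed called, with *Mgst1* lost (0.20, adjusted p = 0.493). With that term 5139 of 14936 genes were called in eWAT, against 7730 without it. In eWAT the liver and macrophage markers separated ND-fed from HFD-fed wild type libraries without overlap. So did the progenitor and fibroblast markers (2144 to 2825 CPM against 3731 to 7424 CPM on HFD), the endothelial (683 to 1097 against 323 to 590.4), red blood cell (589 to 1466 against 201 to 572) and mammary and skin epithelium markers (16.4 to 125 against 1.82 to 9.07). In iWAT the liver, lymph node and adipocyte markers separated the diets without overlap. So did the progenitor and fibroblast (1122 to 1837 CPM against 3159 to 6257 CPM on HFD), brown adipocyte (162 to 1210.4 against 43.4 to 77.6), mammary and skin epithelium (6.28 to 76.7 against 3.01 to 4.75) and mesothelial markers (1.73 to 7.26 against 0.341 to 1.43). The part of these in the diet differences of the members and that of the diet cannot be told apart. With the liver level as a term, 0 of the 6 members stayed called in iWAT (adjusted p from 0.203 to 0.747, and 317 genes called in all). *Gsta3*, *Gsta4* and *Gsto1* stayed called in eWAT (adjusted p = 0.0451, 0.0966 and 0.0997), where 1894 of 14936 genes were called with the liver term. Between the genotypes, the macrophage markers did not overlap in eWAT or in iWAT (496 to 569 CPM in knockout and 657 to 1655 in HFD-fed wild type iWAT), and neither did the brown adipocyte markers in iWAT (105 to 268 against 43.4 to 77.6). By calls for genotype in eWAT (19.9% of all genes), 4 of the 10 adipocyte markers were higher in the knockout and 0 lower (median log2 0.41). Of the 9 progenitor and fibroblast markers 6 were lower and 0 higher (median -0.93), and of the 10 epididymis markers tested 5 were higher and 0 lower. The part of these marker lists in the genotype differences was not tested.

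Set against the adipocyte markers of the same library, a scale added after the data were seen, the members divided. The 10 markers did not move together with diet in eWAT: 4 were called lower and 1 higher (median log2 -0.46), where 51.8% of all genes were called. Their sum was at 32966 to 50985 CPM in ND-fed and 32499 to 62248 CPM in HFD-fed wild type eWAT. With diet in iWAT, 5 of the 10 markers were called higher and 1 lower (median log2 0.34), where 50.1% of all genes were called. Their sum was at 32787 to 39312 CPM in ND-fed and 56584 to 72084 CPM in HFD-fed wild type iWAT. The direction of a member on this scale therefore depends on which markers are summed. *Gsta4* in iWAT was at 1.0 to 1.45 CPM per 1000 CPM of adipocyte markers in ND-fed and 0.193 to 0.394 in HFD-fed wild type mice, and *Gsta3* in eWAT at 3.57 to 7.46 and 0.818 to 1.15, so that neither overlapped. *Gsta3* in iWAT, which was not called in CPM, was at 1.83 to 2.30 and 0.773 to 1.33. *Gsto1* in eWAT was at 0.95 to 1.2 and 1.62 to 2.18. In iWAT *Gstz1*, at 14.7 to 15.8 in ND-fed and 9.96 to 13 in HFD-fed mice, and *Mgst1*, at 20.9 to 22.7 and 16.4 to 18.0, were lower on HFD on this scale, the opposite of their direction in CPM. *Gstm2*, *Gsto1* and *Mgst3* overlapped between the diets in iWAT on this scale (1.60 to 2.19 and 1.94 to 2.41 for *Gstm2*). For genotype in eWAT, *Gsta3* was at 1.62 to 3.42 in knockout mice and *Gstz1* at 15.6 to 17.9 against 9.29 to 13.6 in HFD-fed wild type mice, each apart from wild type. *Gsta4* (0.146 to 0.601 against 0.0787 to 0.148), *Mgst3* (3.40 to 5.43 against 3.03 to 3.93) and *Gstt1* (0.625 to 1.54 against 0.745 to 1.14) overlapped.

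Against ND-fed wild type mice, HFD-fed *Acod1*-/- mice differed in 2 members in eWAT (26.5% of all genes called), *Gsto1* (0.74 ± 0.19, adjusted p = 0.022) and *Mgst3* (0.51 ± 0.20, adjusted p = 0.0902). The *Mgst3* call was kept in 4 of the 14 fits that left out 1 library. It was lost without any of the 4 ND-fed libraries, wild type HFD-fed libraries 3 or 4, or knockout libraries 1, 2, 3 or 4 (0.45 to 0.56, adjusted p from 0.103 to 0.188). With the liver level as a term neither member stayed called in eWAT, where only 2 of 14936 genes were called in all. In iWAT 7 members were called and the 7 were higher in the knockout (34.6% of all genes called, 18.5% higher). They were *Gstm2* (1.17 ± 0.14), *Mgst3* (1.06 ± 0.25), *Gstt1*, *Mgst1* (0.92 ± 0.20), *Gstz1*, *Gsto1* (0.73 ± 0.21) and *Gstk1*, and *Gsta3*, *Gsta4* and *Gstm1* were not called. With the liver level as a term, none of the 7 stayed called (337 genes were). Genotype and diet both differ in this comparison and cannot be told apart in it.

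Between depots, 3 members were called in ND-fed wild type mice (31.7% of all genes), and *Gsta3* (1.65 ± 0.34, adjusted p = 0.00128), *Gstm2* and *Gstm1* were all higher in eWAT (17.5% of all genes). In HFD-fed wild type mice 3 were called (18.6% of all genes): *Gstm1* was higher in eWAT, and *Gsta4* (-1.22 ± 0.37, adjusted p = 0.0338) and *Mgst3* were lower. In knockout mice 2 were called (3.81% of all genes), *Gstm1* higher and *Gstt1* lower in eWAT. The effect of diet differed between depots for 3 members, *Gsta3*, *Mgst3* and *Gstm2*, each lower in eWAT relative to iWAT (29.0% of all genes called, 15% in this direction). The effect of genotype was not shown to differ between depots for any member (0.00665% of all genes called). The largest difference among the 10 members was that of *Gsta3* (1.33 ± 0.42, adjusted p = 0.322), which was not called, and DESeq2's Wald test called no member. The eWAT and iWAT libraries may come from the same mice, which the labels do not say.

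The other 17 glutathione transferase genes held 13 with enough reads to test in each depot, with *Gstt4* tested in eWAT alone and *Gstp3* in iWAT alone. The share of all genes called was 51.8% for diet and 19.9% for genotype in eWAT and 50.1% for diet in iWAT, and the counts of these and the following lists stand against it. With diet in eWAT 2 of the 13 rose and 6 fell (61.5% called, median log2 -0.45), and with genotype in eWAT 5 were higher and 1 lower in the knockout (46.2%, median 0.46). *Hpgds*, the sigma class enzyme that makes prostaglandin D in immune cells, was at 9.78, 3.54, 3.81 and 6.67 CPM in ND-fed, 201, 100.1, 38, 77.3 and 26.4 CPM in HFD-fed wild type and 8.56, 5.49, 5.79, 6.67 and 23.0 CPM in knockout eWAT. It rose 14.9-fold with diet (log2 3.89 ± 0.66, adjusted p = 0.000886) and was lower in the knockout (-3.16 ± 0.58, adjusted p = 0.011), moving with the macrophage markers, whose part was not tested. *Gstm5* fell 2.93-fold (log2 -1.55 ± 0.30, adjusted p = 0.00164) and *Gstt3* 2.39-fold (log2 -1.26 ± 0.28, adjusted p = 0.00343) with diet in eWAT. *Gstm7* fell as well (log2 -4.05 ± 1.09, adjusted p = 0.00991), but ND-fed library 2 with its epididymis transcripts had 469 CPM and the other 3 ND-fed libraries 9.14 to 54.6 CPM, against 3.91 to 23.4 CPM in HFD-fed wild type eWAT, and without that library the difference was -1.99 (adjusted p = 0.0807). In iWAT 3 of the 13 rose and 2 fell with diet (38.5%, median 0.12), and none was called for genotype. Of those not tested, *Gsta1*, *Gsta2* and *Gstm3* had at most 88 counts in any library.

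The membrane relatives of *Mgst1* and *Mgst3* that serve leukotriene and prostaglandin synthesis changed with diet in both depots, 2 of 3 upwards and 1 downwards in each, and 1 was lower in the knockout in eWAT. With 3 genes, the list's median was 1.35 for diet in eWAT and 1.17 in iWAT. *Alox5ap*, the helper of leukotriene synthesis, rose in eWAT (1.97 ± 0.30, adjusted p = 0.000517), *Ltc4s*, which joins glutathione to leukotriene A, rose in iWAT (1.17 ± 0.13, adjusted p = 0.000141) and *Ptges*, a prostaglandin E synthase, fell in iWAT (-0.89 ± 0.32, adjusted p = 0.0437). The *Ptges* call was lost without ND-fed library 2 (-0.83, adjusted p = 0.124) or 3 (-0.60, adjusted p = 0.198). Of 15 genes of glutathione synthesis, recycling and breakdown, 3 rose and 6 fell with diet in eWAT (60.0% called, median -0.11) and 6 rose and 3 fell in iWAT (60.0%, median 0.25). In iWAT *Gclm* (0.62 ± 0.11, adjusted p = 0.0013), a subunit of the rate-limiting ligase, *Gss* (0.55 ± 0.10, adjusted p = 0.00156), the second enzyme of synthesis, and *Slc3a2* (0.80 ± 0.14, adjusted p = 0.00119) rose. *Slc7a11*, the cystine carrier that pairs with the product of *Slc3a2*, fell (-3.45 ± 0.69, adjusted p = 0.00257). For genotype in eWAT 2 of the 15 were higher and 2 lower (26.7%, median 0.07).

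Of the 10 peroxidases and glutaredoxins, 2 rose and 1 fell with diet in eWAT (30%, median 0.14) and 5 rose and 2 fell in iWAT (70.0%, median 0.14). *Gpx7* (1.85 ± 0.19, adjusted p = 9.43e-05) and *Prdx6* (1.26 ± 0.15, adjusted p = 0.000174) rose in iWAT, as did *Glrx5* (0.83 ± 0.17, adjusted p = 0.00297), and *Gpx3*, the secreted peroxidase, fell (-1.43 ± 0.24, adjusted p = 0.00106). For genotype in eWAT 1 was higher and 1 lower (20%, median 0.25). Of 6 exporters of glutathione conjugates, 2 rose and 2 fell with diet in eWAT (66.7%, median -0.23), 3 rose and 1 fell in iWAT (66.7%, median 0.24) and none was called for genotype. *Abcc3* rose in iWAT (1.62 ± 0.20, adjusted p = 0.000219) and *Abcc2* in eWAT (3.58 ± 0.83, adjusted p = 0.00435), while *Abcc1* fell in eWAT (-0.43 ± 0.13, adjusted p = 0.0163). *Abcc2* was close to the filter on low counts and was tested in 13 of the 14 fits that left out 1 library. Liver transcripts were also higher in HFD-fed eWAT, and their part in the *Abcc2* difference was not tested.

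Of 15 enzymes that remove reactive aldehydes, 7 rose and 3 fell with diet in eWAT (66.7% called, median 0.06), 3 were higher and 3 lower with genotype in eWAT (40%, median -0.15), and 6 rose and 1 fell with diet in iWAT (46.7%, median 0.19). *Ptgr1*, a reductase of unsaturated aldehydes and ketones, rose 3.45-fold in iWAT (log2 1.79 ± 0.20, adjusted p = 0.000147), and *Akr1b8*, an aldo-keto reductase, 3.36-fold in eWAT (log2 1.75 ± 0.24, adjusted p = 0.000364). *Aldh7a1* fell in eWAT (-0.86 ± 0.11, adjusted p = 0.000282) and *Esd* rose (0.70 ± 0.12, adjusted p = 0.000924). Of the 5 tyrosine breakdown enzymes around *Gstz1*, 4 rose with diet in eWAT (median 3.06) and 5 in iWAT (median 3.95). *Tat* and *Hpd*, which are liver enzymes, rose in iWAT by 8.50 ± 1.15 and 3.52 ± 0.66 on the log2 scale (adjusted p = 0.000343 and 0.00184) in the libraries that also held *Alb* and other liver transcripts. *Fah* rose by 0.65 ± 0.11 (adjusted p = 0.00135). Of NRF2, its inhibitor *Keap1* and 4 target enzymes, 1 rose and 1 fell with diet in eWAT (33.3% called, median 0.06), 2 were lower in the knockout in eWAT (33.3%, median -0.28) and 1 rose with diet in iWAT (16.7%, median 0.21). *Hmox1* rose (2.13 ± 0.34, adjusted p = 0.000642) and *Nqo1* fell (-1.43 ± 0.51, adjusted p = 0.0362) with diet in eWAT, *Srxn1* rose in iWAT (0.85 ± 0.19, adjusted p = 0.00483) and *Txnrd1* was lower in the knockout in eWAT (-0.35 ± 0.13, adjusted p = 0.0968). The *Nqo1* call was lost without ND-fed library 2, the one with the epididymis transcripts, where the difference was -0.38 (adjusted p = 0.406). The *Txnrd1* call was kept in 5 of the 14 fits that left out 1 library, and lost without ND-fed libraries 1 or 4, wild type HFD-fed libraries 1, 2 or 4 or knockout libraries 1, 2, 3 or 4 (-0.29 to -0.39, adjusted p from 0.117 to 0.218). None of the genes in these lists was called for genotype in iWAT.

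**Figure D5:**
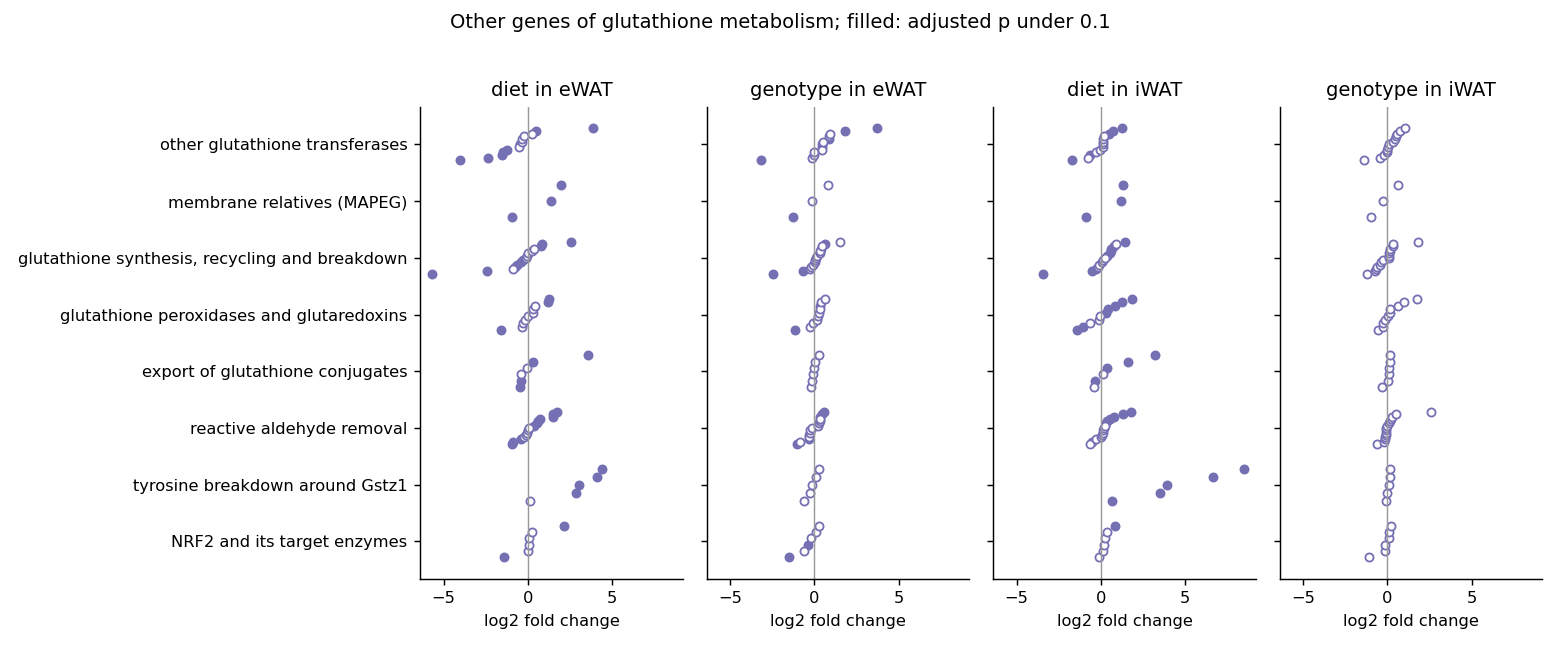
Fitted log2 fold changes of the genes of 8 other lists in the diet and genotype comparisons of both depots, 1 point per gene; filled points have an adjusted p under 0.1. Points on both sides of 0 are filled for most lists, the 5 tyrosine breakdown genes lie at 0.65 to 8.50 for diet in iWAT, and no point is filled for genotype in iWAT.

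Over the 25 libraries, each member was set beside the 11421 genes that averaged 5 CPM or more, and the gene whose log2 CPM was most like it is given as a description for the members other than *Gstm1*. It was *Car5b* for *Gsta3* (Pearson r = 0.946), *Ivd* for *Gsta4* (r = 0.96), *Psat1* for *Gstm2* (r = 0.903) and *Nnat* for *Gstt1* (r = 0.854). It was *Smim10l1* for *Gstz1* (r = 0.931), *Sdhaf3* for *Gsto1* (r = 0.915), *Lias* for *Gstk1* (r = 0.888), *Mgll* for *Mgst1* (r = 0.857) and *Mzt2* for *Mgst3* (r = 0.899). No member's nearest gene was another member. Among the members, *Gstz1* and *Mgst1* were most alike (r = 0.768), *Gsta3* and *Gsta4* had r = 0.694, and *Gsta4* and *Gsto1* were the most opposed (r = -0.511). The points share their libraries, depots and marker levels.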

How the data were processed

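RNA-seq was read from the deposited tables of 25 libraries. The authors extracted RNA from fat, made stranded libraries, trimmed reads with cutadapt, aligned them to GRCm38 (mm10) with STAR and deposited read counts per gene. The counting program and its use of strand are not given in the sources used here. The deposited FPKM values, made by the authors from those counts and gene lengths, served only as a check of the counts, and cDNA lengths are the deposited ones. Reads outside genes (6.41% to 11.9%) or ambiguous between genes (1.52% to 2.07%) were left out.

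Counts were tested with edgeR 4.0.16 (R 4.3.3), by its quasi-likelihood test with TMM normalization, on genes averaging 1 CPM or more, with all groups of a depot in 1 fit (14 eWAT or 11 iWAT libraries) and all 25 libraries for depots and interactions. P-values were adjusted by Benjamini and Hochberg over all genes, and 0.1 was the threshold. CPM are on the TMM scale. Intervals are 95% intervals of the fitted difference by a normal approximation. This approximation takes no account of the small number of libraries, so the intervals can be too narrow. DESeq2 1.42.0 was an alternative, and the code was tested on simulated data. Libraries are taken as separate samples. Where the labels do not tie a library to its own mouse, p-values measure the spread between samples only.

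The members and lists were chosen with earlier results of these data known. All members are named. Of each other list the text names at most 4 genes, those with the smallest adjusted p for diet or genotype in either depot, besides *Acod1*, markers, paralogs and the gene most like each member. *Gstt4*, *Gstp3* and the Gst genes with too few reads are named as exceptions. Some genes that this rule names are not reported here. The alternatives were other filters, scalings, tests, thresholds and groups in the fit, the replicate number as a block, the series as a term, series 1 alone, and each library left out. Terms for liver markers, leaving out libraries over 100 CPM of *Crisp1*, and the adipocyte marker scale were added after the data were seen. Whether replicate numbers pair the samples was not settled. Of 22 same-numbered pairs within depots, 12 had correlated deviations over 0.1 (r from -0.30 to 0.31). Across depots, HFD-fed wild type libraries had r of 0.49 and 0.34 for numbers 4 and 1, and -0.051, 0.042 and 0.10 for numbers 2, 3 and 5. The main fits used no pairing.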

Additional observations from a re-analysis of the deposited data

Results flagged for a closer look

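In groups of 4 or 5 libraries, 3 of 40 sets of member values had a library far from the rest by Dixon's criterion, which chance meets in about 1 of 20 groups. In knockout eWAT, library 5 was the lowest for *Mgst1*, at 906 CPM with the others at 1163 to 1215 CPM, and for *Mgst3*, at 173 CPM with the others at 267 to 309 CPM. That library also had the highest macrophage and epididymis marker sums of its group, whose part was not tested. In HFD-fed wild type iWAT, library 2 was the highest for *Mgst3*, at 376 CPM with the others at 255 to 279 CPM.

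The effect of diet differed between eWAT and iWAT by the interaction test for *Gsta3* (-2.06), *Mgst3* (-1.14) and *Gstm2* (-1.06 on the log2 scale), the last only with ND-fed eWAT library 2 and ND-fed iWAT library 2 both kept.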

How the results depend on the processing

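No member called in the comparisons changed direction under a fitted alternative. For genotype in eWAT 5 members were called (2976 of 14936 genes in all). The count was 3 without a filter on low counts (2504 of 34256 genes) and 3 at an adjusted p under 0.05 (1717 of 14936 genes). For knockout against ND-fed wild type in eWAT, 2 (3953 genes in all) became 1 without the filter (2675 genes) and 1 at 0.05 (2358 genes). It became 1 with the series as a term (1048 genes) and 0 with the liver level as a term (2 genes). With the liver level, diet in iWAT went from 6 to 0 and knockout against ND-fed wild type in iWAT from 7 to 0. For genotype in iWAT, 0 became 2 without the filter, 2 with at least 1 CPM in every library, 4 with DESeq2's Wald test and 5 in series 1 alone. The main fit called 0 of 14801 genes there, and the number of all genes called moved with the fit too. These member counts alone do not set the members apart from other genes. For depot in knockout mice, 2 became 1 without the filter, 1 with the liver level, 1 at 0.05 and 0 with only the groups compared. For the genotype by depot interaction, 0 became 1 without the 2 libraries over 100 CPM of *Crisp1*. The number of all genes called is not given here for each of these fits. The counts for depot and for the interaction therefore do not set the members apart from other genes either. The causes were not tested.

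With the replicate number as a block, the samples sharing only a number, the count was 4 for genotype in eWAT (*Gstt1* lost, adjusted p = 0.148). Of all genes, 2389 of 14936 were called there, against 2976 in the main fit. For knockout against ND-fed wild type in eWAT the count was 1, with 2662 genes called in all, against 3953. The count was 5 for diet in iWAT (*Mgst1* lost, adjusted p = 0.114) and 1 for depot in knockout mice. These counts alone do not set the members apart from other genes. The log2 difference for diet was -0.10 for *Gstm1* in eWAT and -0.036 for *Gstt1* in iWAT, each opposite in sign to the unblocked value.

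Leaving out 1 library at a time gave 3 to 4 members for diet and 2 to 6 for genotype in eWAT, 5 to 6 and 0 to 5 in iWAT, and 1 to 4 and 7 to 8 for knockout against ND-fed wild type in eWAT and iWAT. Depot gave 3 to 4 in each wild type group and 0 to 2 in knockout mice, the diet interaction 2 to 5 and the genotype interaction 0 to 1. The number of all genes called moved too. For genotype in eWAT it was 1709 without HFD-fed wild type library 1 and 2976 with every library. For knockout against ND-fed wild type in eWAT, 4392 genes and 4 members were called without HFD-fed wild type library 1. Without ND-fed library 2, 2530 genes and 1 member were called there. The ranges alone do not set the members apart from other genes. Signs turned for uncalled members: diet in eWAT for *Gstm1* (-0.18 to 0.23) and *Gstm2* (-0.28 to 0.32), genotype in eWAT for *Gstm1* (-0.018 to 0.39), diet in iWAT for *Gstm1* (-0.12 to 0.037) and *Gstt1* (-0.10 to 0.13), and genotype in iWAT for *Mgst3* (-0.34 to 0.23).

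Other signs turned as well. For diet in eWAT, *Gstm2* was 0.34 with the series as a term, 0.050 with the liver level and 0.32 without the *Crisp1* libraries, and with the liver level *Gstk1* was -0.081 and *Mgst3* 0.035. For diet in iWAT, *Gsta3* was 0.24 and *Gstm1* 0.024 with the series, and *Gstt1* -0.17, *Gstk1* -0.047 and *Hpd*, called at 3.52, -0.45 with the liver level. For genotype in iWAT, *Mgst3* was 0.018 without the filter, 0.018 with 1 CPM in every library, 0.020 with DESeq2's size factors or Wald test, 0.0033 with the series, 0.026 with only the groups compared and 0.10 in series 1 alone. Per adipocyte marker level, with no test, diet in iWAT was -0.37 for *Gstz1* and -0.34 for *Mgst1*, called in CPM at 0.46 and 0.49.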
